A study of Homo sapiens with 8 samples.

Results

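The 9 genes described here are the tumour suppressors STK11, SMARCA4, CDKN2A and CDKN2B, the metabolic gene MTAP beside the CDKN2A locus, the oncogene MYC with its neighbour PVT1, and the receptor tyrosine kinase genes EGFR and MET. H3K27ac peaks of 6 libraries were merged into 49186 regions wherever they overlapped by at least 1 bp, and the 100 regions that touched one of the 9 gene bodies or the 50 kb on either side of it are the members. H3K27ac, acetylation of lysine 27 on histone H3, was measured by chromatin immunoprecipitation and sequencing in A549, a human lung adenocarcinoma line with mutant KEAP1, in which the transcription factor NRF2 is constantly active. All libraries came from these same cells, harvested 48 h after transfection of control siRNA (3 libraries) or of an siRNA against NRF2 (3 libraries). Replicate 1 of the NRF2 group used siRNA 28, whereas replicates 2 and 3 used siRNA 30. A549 is 1 line, so no value here speaks for other tumours.

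H3K27ac lies on nucleosomes beside active promoters and enhancers, and long stretches of it mark clusters of enhancers. A549 cells are known to carry mutant STK11 and SMARCA4, to have lost CDKN2A, and to express EGFR without a mutation in it. PVT1 is a long noncoding RNA gene whose body holds enhancers and lies next to MYC. In KEAP1-mutant cells, NRF2 escapes degradation and binds antioxidant response elements, which overlap in sequence with sites of AP-1.

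Of the 9 genes, 7 had at least 1 region in the window and CDKN2A and CDKN2B had none. PVT1 had 43 regions, EGFR 18, MET 14, STK11 12, SMARCA4 6, MTAP 5 and MYC 4, with 2 regions shared by MYC and PVT1. Counted per 100 kb of window, PVT1 had 8.73 regions, STK11 7.95, MET 6.19, EGFR 6.15, MYC 3.72, SMARCA4 2.75 and MTAP 2.13, beside a median of 2.57 over 20176 coding genes. The regions were often long. Of the 100, 16 (16%) measured 10 kb or more, compared with 3.98% of all regions.

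The promoters printed next are those on which the calls differed most plainly. CDKN2A and CDKN2B had no peak in any library, MTAP and EGFR had one in every library, and STK11 had one at its canonical start in 4 libraries. Each line gives the 200 bases of GRCh37 (hg19) that end just before the start used here, 5′ to 3′ along the gene, with GC boxes (GGGCGG on either strand) in capitals.
CDKN2A (chr9:21995301-21995500, minus strand): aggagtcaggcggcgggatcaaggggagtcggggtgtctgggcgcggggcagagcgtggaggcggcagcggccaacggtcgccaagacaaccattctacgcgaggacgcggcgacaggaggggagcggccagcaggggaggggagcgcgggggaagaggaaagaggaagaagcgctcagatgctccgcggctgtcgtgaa
CDKN2B (chr9:22009305-22009504, minus strand): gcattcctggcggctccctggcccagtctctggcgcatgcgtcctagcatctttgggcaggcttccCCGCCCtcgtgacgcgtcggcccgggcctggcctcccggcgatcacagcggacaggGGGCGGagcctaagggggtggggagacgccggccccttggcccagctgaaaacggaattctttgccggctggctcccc
MTAP (chr9:21802435-21802634, plus strand): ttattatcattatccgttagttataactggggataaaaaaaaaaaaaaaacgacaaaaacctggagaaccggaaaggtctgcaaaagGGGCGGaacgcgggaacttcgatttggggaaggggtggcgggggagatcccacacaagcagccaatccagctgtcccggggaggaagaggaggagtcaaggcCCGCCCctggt
STK11 canonical start (chr19:1205577-1205776, plus strand): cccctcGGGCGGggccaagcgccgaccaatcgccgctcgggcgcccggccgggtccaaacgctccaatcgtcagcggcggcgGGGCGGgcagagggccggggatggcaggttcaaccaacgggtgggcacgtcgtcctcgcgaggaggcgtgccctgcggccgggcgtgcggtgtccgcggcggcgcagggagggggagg
EGFR (chr7:55086510-55086709, plus strand): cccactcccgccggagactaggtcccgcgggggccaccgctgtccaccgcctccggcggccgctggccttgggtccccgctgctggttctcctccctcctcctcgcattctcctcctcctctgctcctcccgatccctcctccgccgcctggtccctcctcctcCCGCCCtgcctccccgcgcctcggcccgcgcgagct

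All 5 of these promoters were rich in CpG, defined over the 300 bases from 250 before to 50 after the start as at least 50% G and C with an observed to expected CpG ratio of at least 0.6. The ratio was 1.07 at CDKN2A, 0.74 at CDKN2B, 0.72 at MTAP, 1.06 at the canonical start of STK11 and 0.89 at EGFR. CpG-rich starts usually carried H3K27ac in these cells. Of 11059 CpG-rich 5′ ends of coding genes, 68.8% lay in a region of at least 1 library, against 25% of the others. GC boxes are given as a description alone, since A549 cells are known to have lost CDKN2A and copy number was not measured. CDKN2B, MTAP and the canonical start of STK11 each held 2 in that window, and EGFR held 3. CDKN2A held 0 at the 5′ end used here and 2 at its canonical start. At least 1 was held by 77.9% of CpG-rich 5′ ends of coding genes and by 52.1% of all.

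Each call is given with a percentile, the share of peaks in that library's own list whose fold enrichment was no higher, so a percentile near 100 is a peak among the strongest of its list. Fold enrichments were compared between libraries through their rank alone. The lists held 27941, 34747 and 41571 peaks with control siRNA and 23885, 34986 and 39108 with NRF2 siRNA, so replicate 1 had the shortest list in both groups. Read totals given by the study were also lowest for the shortest list of each group, and were not used here. Of the 100 member regions, the control libraries called 50, 68 and 95 and the NRF2 siRNA libraries 40, 68 and 74. The means, 71.0 ± 22.6 and 60.7 ± 18.1 (SD, n = 3), differed by less than the spread within either group (exact permutation test, two-sided, p = 0.60), and 3 against 3 libraries cannot give a p below 0.1. The peaks covered 271, 357 and 480 kb of the merged windows with control siRNA and 208, 347 and 395 kb with NRF2 siRNA (exact permutation p = 0.50). All 6 libraries called 38 of the 100 regions (38.0%, against 34.2% of all regions). A call in 1 library was found for 24 regions (24.0%, against 21.8% of all regions). That library was control siRNA replicate 3 for 19 of the 24, and for 5142 of the 10735 such regions of the series. The cells carried epithelial marks and no others of those looked for. Regions lay at the 5′ ends of 5 of 6 epithelial genes (EPCAM, CDH1, KRT7, KRT8 and KRT18, of which the last pair share 1 region). KRT19 had none, and 49.0% of all coding genes had a region there. None of 4 blood, 2 endothelial and 3 fibroblast genes had one. At canonical starts 4 of the 6 epithelial genes had a region, as EPCAM then had none either, and the other cell types again had none.

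**Figure D1:**
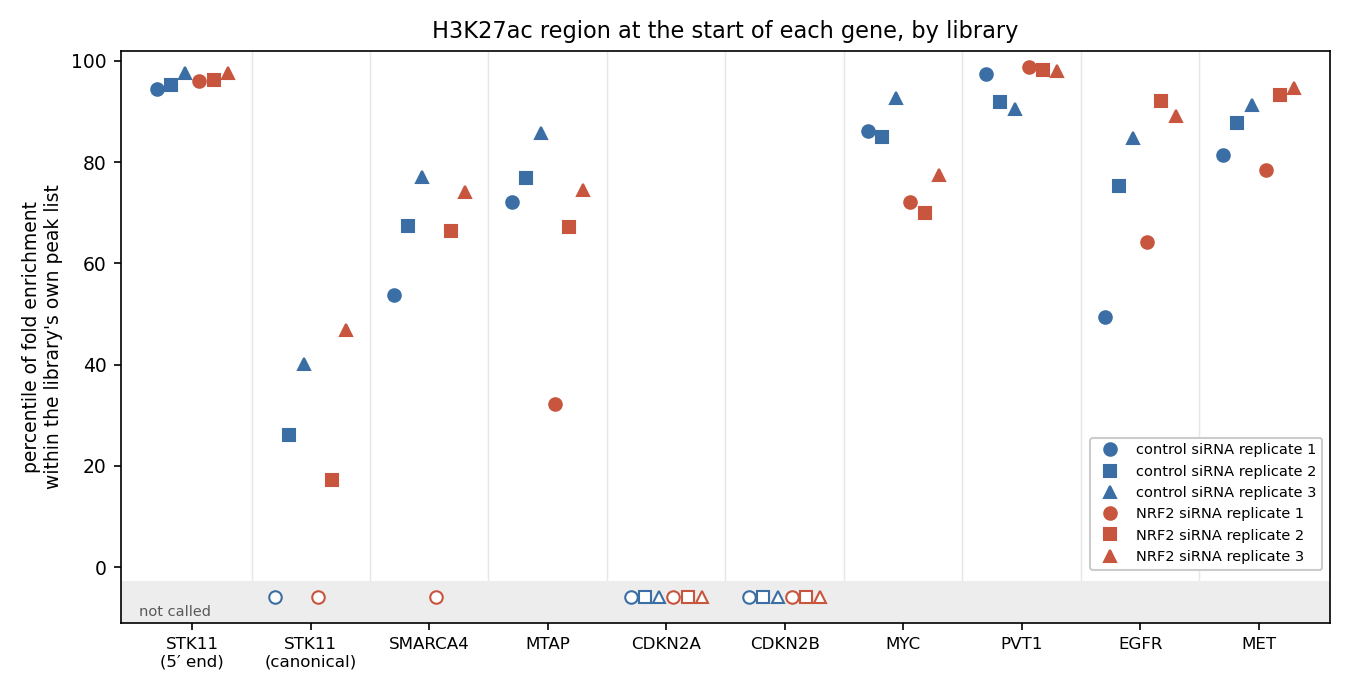
Percentile of the H3K27ac region at the start of each gene (y axis, within the library's own peak list) in 3 control siRNA libraries (blue) and 3 NRF2 siRNA libraries (red), with open symbols in the grey band where a library called no region. The NRF2 siRNA points lie below all control points at MYC and above all of them at PVT1, CDKN2A and CDKN2B have open symbols throughout, and the other groups overlap.

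To compare the groups, regions called in at least 3 libraries were ranked within each library, the ranks were turned into normal scores, and scores were compared with limma over 32673 regions with Benjamini-Hochberg adjustment at 0.05. A score change of -1 therefore means that a region moved down its library's ranking by 1 standard deviation of a normal distribution. Of the 100 member regions, 72 could be tested and 28 were called in too few libraries. With NRF2 siRNA 3 of the 72 fell, against 3.39% of all regions tested, and 0 rose, against 2.01%. At an unadjusted p under 0.05 there were 8 lower and 11 higher of the 72, beside 7361 of all 32673 regions in either direction. Unadjusted counts given below for single windows and gene lists come from the same fit and have that same background. The median change of the tested members, 0.011, was close to the 0.016 of all regions. With the replicate number as a block, 4 of the 72 fell (6.62% of all regions) and 0 rose (5.72%). Lists cut to equal length with that block gave 4 lower and 7 higher. All regions also gave more higher than lower under that setting (counts in the last section), and their share is not given here. Over all regions, equal length alone turned the split of 1108 lower and 657 higher into 1321 lower and 1185 higher.

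The 3 regions that fell lay downstream of MYC, inside PVT1 and downstream of EGFR. Each met the minimum of 3 libraries through its control calls. Each also lacked a call in at least 1 NRF2 siRNA library, where it took the rank shared by all uncalled regions. Of the 38 members called in all 6 libraries, fitted with regions of that kind alone, 0 fell and 0 rose by limma. At an unadjusted p under 0.05 in that separate fit there were 3 lower and 6 higher, and the share of all its regions at that p was not counted. Few of the 16845 regions of that kind passed the adjusted threshold either (counts in the last section), so the members do not stand apart in adjusted calls. Of the 3 regions that fell, the one with the largest change lay 12987 bp past the end of MYC and stood among the strongest peaks of the control lists. The 7 regions that rose under the block with equal lists were 4 in PVT1 and 1 each in the windows of MTAP, EGFR and MET, with changes of 0.70 to 0.97.

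MYC encodes a transcription factor that drives growth and proliferation. Its start lies in a region of 14334 bp, chr8:128743968-128758301, which spans the whole gene. The region stood at percentiles 86.2, 85.0 and 92.7 with control siRNA and at 72.2, 69.9 and 77.4 with NRF2 siRNA. All NRF2 siRNA libraries lay under all control libraries, with means of 73.2 ± 3.87 and 88.0 ± 4.13 (SD, n = 3; exact permutation p = 0.1, the smallest possible). In limma the change of -0.51 (SE 0.209) did not pass (adjusted p = 0.186). The peaks in it covered 12410, 11743 and 14334 bp in the control libraries and 8107, 11011 and 11336 bp with NRF2 siRNA, without overlap but by a narrow margin. The share of all regions without overlap in this measure was not counted. Covered length also differed between whole lists, at 64.7 Mb in control siRNA replicate 1 and 46.3 Mb in NRF2 siRNA replicate 1.

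The region downstream of MYC, chr8:128768184-128779778, holds no coding start and lies between MYC and PVT1. Its percentiles were 96.6, 97.4 and 88.4 with control siRNA. NRF2 siRNA replicate 1 called no peak there and replicates 2 and 3 stood at 16.6 and 32.1. Its score fell by 2.42 with NRF2 siRNA (SE 0.268, adjusted p = 0.00628 by limma; with replicates 2 and 3 alone, the change was -2.38 with adjusted p = 0.0338). The drop was seen in all 3 pairs of replicates, by 2.75, 2.75 and 1.77. Peaks covered 5247, 6073 and 11595 bp in the control libraries and 0, 895 and 1058 bp with NRF2 siRNA. The call was lost when control siRNA replicate 2 (adjusted p = 0.0698) or control siRNA replicate 3 (adjusted p = 0.0624) was left out, and it held when any of the other 4 libraries was.

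The remaining regions of the MYC window did not pass the test. A region 49517 bp upstream, chr8:128694735-128698163, had percentiles of 40.2, 57.7 and 46.4 with control siRNA and 86.0, 55.4 and 68.4 with NRF2 siRNA, where the groups overlap (change 0.64, SE 0.33, adjusted p = 0.291). Summed over the MYC window, peaks covered 17.7, 17.8 and 26.7 kb with control siRNA and 8.4, 12 and 12.9 kb with NRF2 siRNA. MYC was the single gene of the 7 whose windows did not overlap between groups in covered length. Of 14702 coding genes covered in all libraries, 6.50% were lower without overlap in this way and 1.01% were higher.

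**Figure D2:**
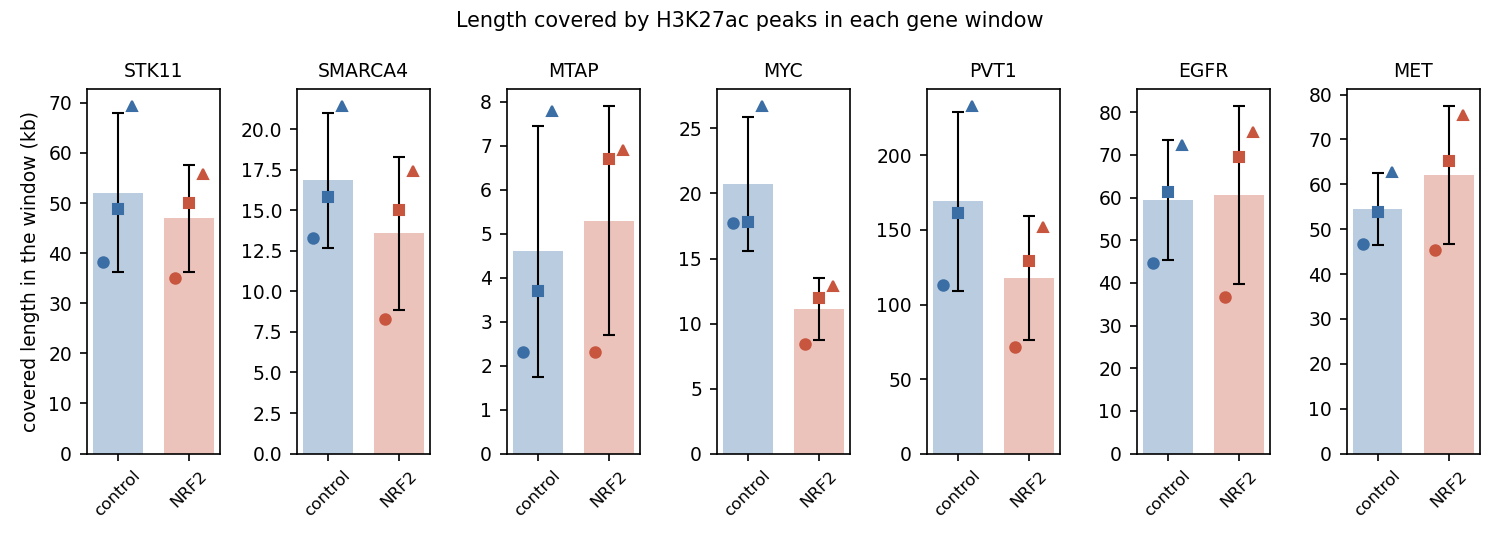
Length in kb covered by H3K27ac peaks in the window of each gene (gene body and 50 kb on each side), with a separate y axis from 0 for each gene, for 3 control siRNA (blue) and 3 NRF2 siRNA (red) libraries; bars are means, error bars are SD, and circles, squares and triangles are replicates 1, 2 and 3. The MYC values of 8.4 to 12.9 kb with NRF2 siRNA lie below the 17.7 to 26.7 kb of the controls, and all other pairs of groups overlap.

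PVT1 was the most densely marked window, above 98.3% of coding genes in regions per kb, and 39 of its 43 regions lay in the gene body. Control siRNA replicate 3 called all 43, the other control libraries 22 and 28, and the NRF2 siRNA libraries 14, 24 and 28. Of the 43, 28 could be tested and 14 had a call in all 6 libraries. The start of PVT1 lies in a region of 22602 bp, chr8:128805947-128828548, at percentiles 97.5, 91.8 and 90.5 with control siRNA and 98.7, 98.2 and 98.0 with NRF2 siRNA. All NRF2 siRNA values lay above all control values (exact permutation p = 0.1), but the score change of 0.61 (SE 0.265) did not pass (adjusted p = 0.213). The widest region of all the windows, 39826 bp at chr8:128854703-128894528, began 47931 bp into PVT1 and stood at 94.9, 91.2 and 93.1 with control siRNA and 93.8, 87.8 and 88.0 with NRF2 siRNA.

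A region in the distal part of PVT1 fell with NRF2 siRNA. At chr8:129074412-129083201, 267640 bp from the PVT1 start, the control libraries stood at 74.3, 76.9 and 57.7, NRF2 siRNA replicates 1 and 2 called nothing and replicate 3 stood at 4.6. The score fell by 1.83 (SE 0.312, adjusted p = 0.0162 by limma). However, 2 of the 3 NRF2 siRNA scores are the rank shared by all uncalled regions, so the size of the change rests on that rank. This call was lost without any one of the 3 control libraries or of NRF2 siRNA replicates 2 and 3 (adjusted p between 0.0645 and 0.112), and was kept without NRF2 siRNA replicate 1. At the neighbouring chr8:129045018-129051803, 238246 bp from the start, the percentiles were 75.7, 73.1 and 72.5 with control siRNA and 35.5, 35.4 and 37.3 with NRF2 siRNA. Replicates lay close together and the groups far apart there. The change was -0.86 (SE 0.258, adjusted p = 0.0877), and with the replicate block it passed (adjusted p = 0.0252).

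Other parts of PVT1 had the opposite order. The region at chr8:129113924-129124731 stood at 37.4, 54.7 and 45.4 with control siRNA and at 69.3, 69.0 and 74.4 with NRF2 siRNA (change 0.72, SE 0.23, adjusted p = 0.104). At chr8:128918390-128924769 the values were 57.4, 59.6 and 54.4 against 82.8, 72.0 and 68.7 (change 0.54, SE 0.277, adjusted p = 0.286). Neither pair of groups overlapped, and neither change passed the threshold without further settings. Both were among the 7 that rose with the replicate block and equal list lengths, at 0.97 (adjusted p = 0.0256) and 0.70 (adjusted p = 0.0461). Over the 28 tested regions of the PVT1 window the median change was -0.08, with 18 below 0 and 10 above.

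**Figure D3:**
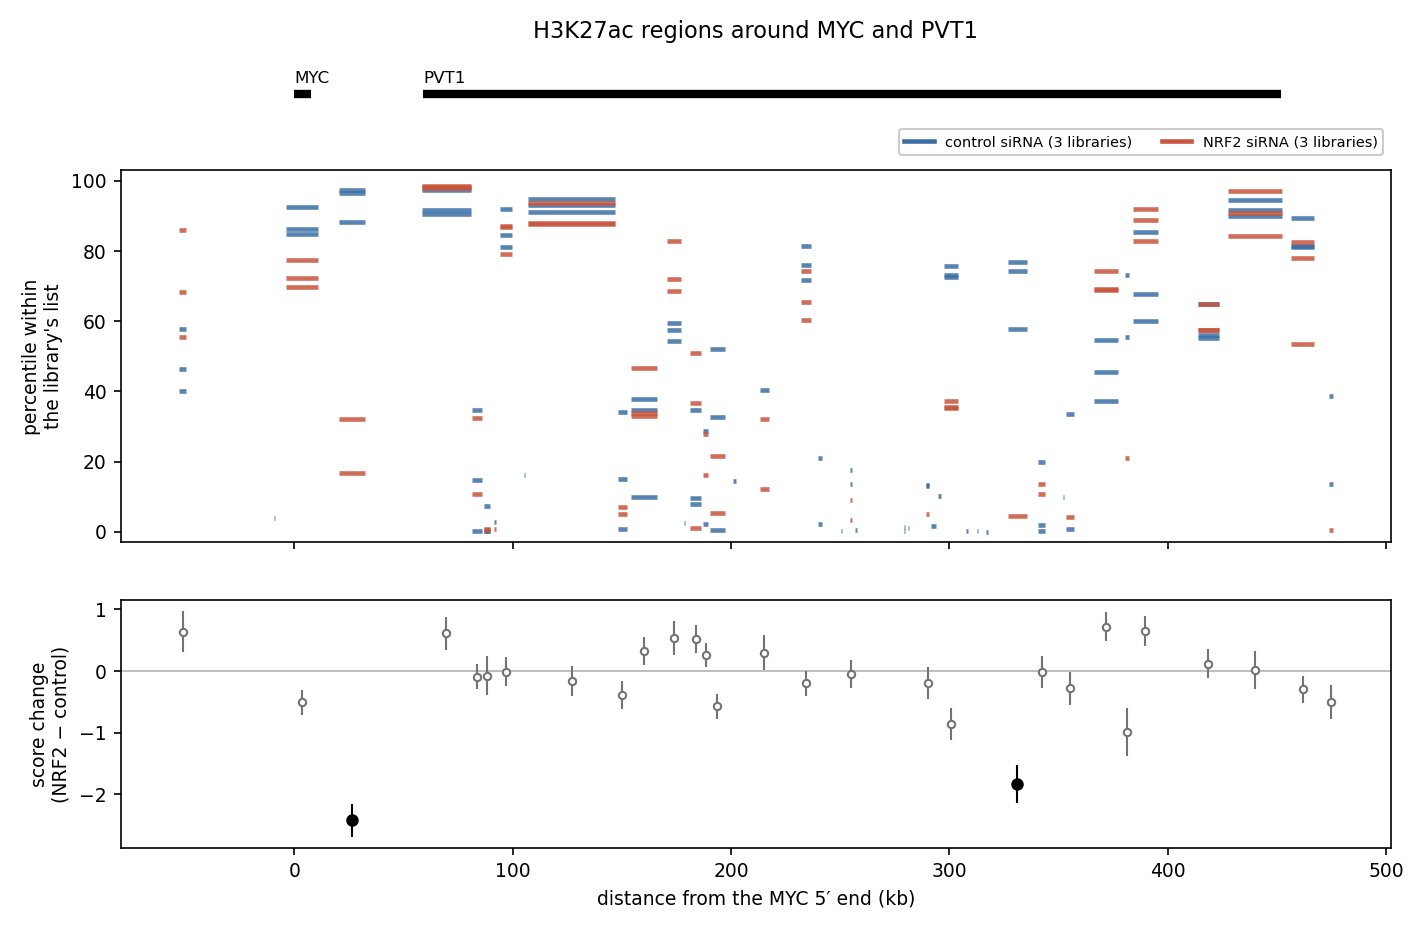
Regions around MYC and PVT1 by distance from the MYC 5′ end (kb, x axis): gene bodies on top, the percentile of each region in each library in the middle (segments span the region, blue control siRNA, red NRF2 siRNA, libraries without a call left out), and the limma score change with its SE below (filled black, adjusted p under 0.05). The filled points are the region downstream of MYC at -2.42 and the distal PVT1 region at -1.83.

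Taken over the windows, 38 member regions had a percentile in all 6 libraries. The NRF2 siRNA values lay under every control value in 2 of them, the MYC start and the PVT1 region at 129045018, against 11.3% of all such regions. They lay above every control value in 5, against 8.85%. Those 5 were the PVT1 start, the pair of PVT1 regions just given and a pair of regions upstream of EGFR.

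EGFR encodes the receptor for epidermal growth factor. Its start lies in chr7:55086108-55092328, at percentiles 49.4, 75.2 and 84.7 with control siRNA and 64.2, 92.1 and 89.1 with NRF2 siRNA. The groups overlapped, each NRF2 siRNA library stood above the control of the same number, and the change of 0.49 (SE 0.257) did not pass (adjusted p = 0.304). Upstream of the start, chr7:55050554-55058822 stood at 84.8, 84.6 and 80 with control siRNA and at 91.0, 94.1 and 91.2 with NRF2 siRNA (change 0.50, SE 0.219, adjusted p = 0.214). Next to it, chr7:55059509-55066026 stood at 83.6, 82.7 and 76.7 against 95.3, 90.1 and 90.7 (change 0.58, SE 0.254, adjusted p = 0.213). The groups did not overlap at either region. The widest region of EGFR, 31830 bp of intron at chr7:55118782-55150611, stood at 92.6, 92.8 and 91.8 with control siRNA and at 98.3, 92.3 and 93.2 with NRF2 siRNA. It was also the best ranked of that window.

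The region of the EGFR window that fell, chr7:55322285-55323410, was short and lay 42964 bp past the end of the gene, with LANCL2 as the nearest coding start at 109620 bp. Its percentiles were 60.4, 61.7 and 68.1 with control siRNA. NRF2 siRNA replicate 1 had no call and replicates 2 and 3 stood at 25.2 and 43.6. All called NRF2 siRNA values lay under the control values, and the score fell by 0.95 (SE 0.21, adjusted p = 0.0357 by limma). The call was lost when any one of the 6 libraries was left out (adjusted p between 0.0508 and 0.144) and with replicates 2 and 3 alone (0.0717). Of the 15 tested regions of this window, 11 had a change above 0 and 4 below, and none but this one passed. Regions uncalled in replicate 1 of both groups gained 0.25 in that pair from their tied ranks alone. Among the 11, chr7:55159287-55160205 was such a region, with a change of 0.07, and of -0.23 with replicates 2 and 3 alone.

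MET encodes the receptor for hepatocyte growth factor. Of the 10 regions tested in its window, 0 fell and 0 rose by limma, with 1 at an unadjusted p under 0.05. Its strongest regions ranked high in every library. The start region, chr7:116310861-116316899, stood at 81.4, 87.8 and 91.2 with control siRNA and at 78.5, 93.2 and 94.6 with NRF2 siRNA, with groups that overlap (change 0.22, SE 0.212, adjusted p = 0.603). The widest and best ranked region, 17051 bp at chr7:116406832-116423882, lies toward the 3′ end of the gene and varied little, with 97.9, 98.3 and 97.3 against 97.6, 98.3 and 97.4 (change 0.02, SE 0.205). An exonic region 51658 bp from the start, chr7:116363908-116369021, reached 96.4, 98.4 and 99.5 with control siRNA and 94.0, 98.7 and 95.6 with NRF2 siRNA. Of the 14 regions, 5 were at percentile 80 or above in all 6 libraries, the most of any of the 9 genes.

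**Figure D4:**
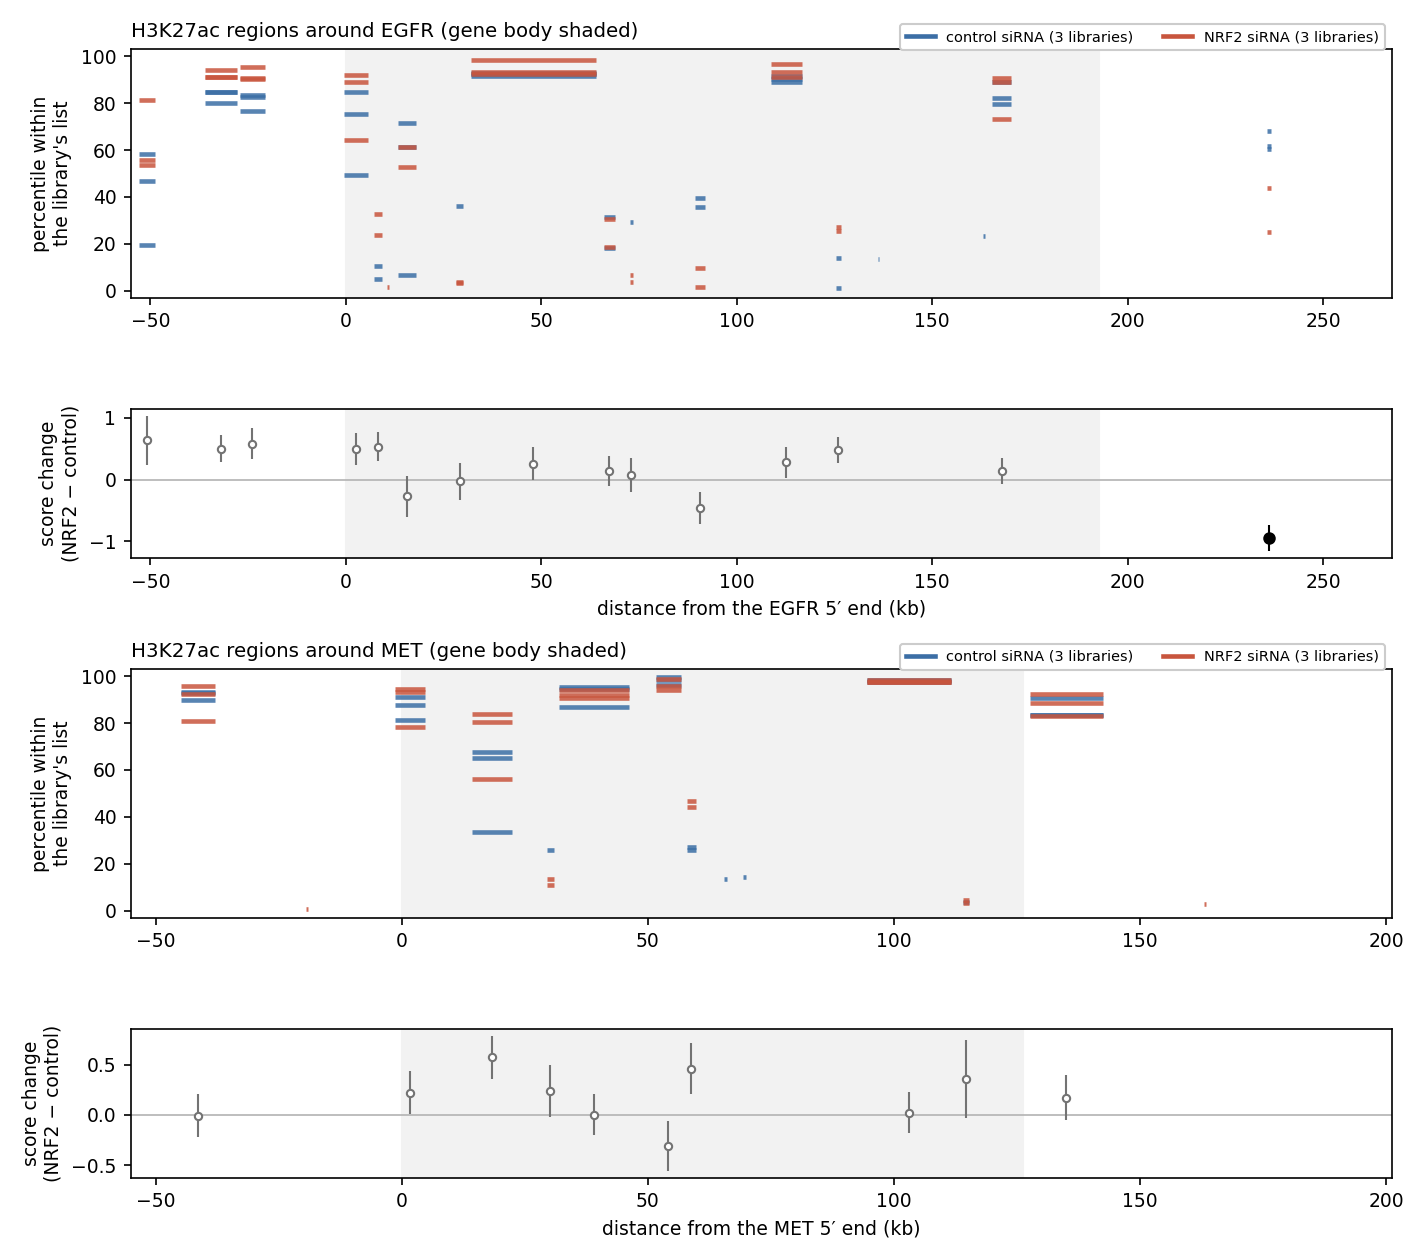
Regions around EGFR (top pair of panels) and MET (bottom pair) by distance from the gene's 5′ end (kb, x axis, gene body shaded), with the percentile in each library above (blue control siRNA, red NRF2 siRNA) and the limma score change with its SE below. The filled black point, at -0.95 downstream of EGFR, is the region that passed, and no MET region did.

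STK11 encodes LKB1, the kinase that activates AMPK. The annotation puts its 5′ end at 1177557 on chromosome 19, in a 20418 bp region that also holds the start of SBNO2, chr19:1166682-1187099. This region stood at 94.5, 95.3 and 97.7 with control siRNA and 96.1, 96.2 and 97.6 with NRF2 siRNA (change 0.11, SE 0.195, adjusted p = 0.799). The canonical STK11 transcript starts at 1205777, in chr19:1205005-1211055, where the signal was weak. Replicate 1 of either group called no peak there, replicates 2 and 3 stood at 26.0 and 40.2 with control siRNA and at 17.3 and 46.8 with NRF2 siRNA, and the groups overlapped (change 0.11, SE 0.245, adjusted p = 0.835). The 2 starts of the gene thus differ widely in rank, and the higher one cannot be told apart from the start of SBNO2. The widest region of the window, 27104 bp at chr19:1243948-1271051, holds the starts of CIRBP and MIDN and stood between 91.7 and 94.0 in all 6 libraries. Of the 10 regions tested in the window 0 fell and 0 rose by limma, with 0 at an unadjusted p under 0.05.

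SMARCA4 encodes BRG1, an ATPase of the SWI/SNF chromatin remodelling complex. Its start region, chr19:11070672-11072674, stood at 53.7, 67.4 and 77.1 with control siRNA, was not called in NRF2 siRNA replicate 1 and stood at 66.3 and 74.0 in NRF2 siRNA replicates 2 and 3. The called values overlapped and the change of -0.42 (SE 0.345, adjusted p = 0.526) did not pass.

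A region near the 3′ end of the annotated SMARCA4 gene, chr19:11174904-11176058, was the single member of the 100 called in all 3 control libraries and in no NRF2 siRNA library, against 2.27% of all regions. The reverse, called with NRF2 siRNA alone, held for 0 members and 0.830% of all regions. Its control percentiles were modest and spread, at 20.5, 5.9 and 56.1. The change of -0.97 (SE 0.364) did not pass (adjusted p = 0.153, and 0.0736 with the replicate block). Most of the region is intronic, and 1 transcript has an exon with UTR at its far end.

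Antioxidant response element cores (TGACNNNGC on either strand) were counted in all regions, because NRF2 binds this motif. The 100 member regions held 0.425 cores per kb, against 0.396 in all regions, and the same letters in reverse order gave 0.130 and 0.115. These densities are descriptions, with no test. Of regions within 10% of its width, 1.63% held at least as many cores as the 9 in the distal PVT1 region that fell. For the 4 downstream of MYC that share was 57.0%. The region near the 3′ end of SMARCA4 held 3, and 1.71% of like regions held at least that many. The one downstream of EGFR held 2, and 8.48% of like regions held at least that many. Members without a call of change had such counts too. The region chr19:1274748-1276819 in the STK11 window held 4, and 1.20% of like regions held at least that many, the lowest share of the 100. Its score change was -0.06 (adjusted p = 0.902 by limma). The PVT1 region at 128918390, where NRF2 siRNA values were higher, held 6, and 5.49% of like regions held at least that many. The cores of SMARCA4 and EGFR are shown next, as 41 bases of GRCh37 centred near the core, 5′ to 3′ on the strand of the core, with the core in capitals. A core of TGACTCAGC also contains the AP-1 motif TGACTCA from its first base on.
SMARCA4 region (chr19:11175200-11175240, minus strand): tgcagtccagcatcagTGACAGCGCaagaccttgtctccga
SMARCA4 region (chr19:11175564-11175604, minus strand): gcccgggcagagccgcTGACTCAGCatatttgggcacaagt
SMARCA4 region (chr19:11175595-11175635, minus strand): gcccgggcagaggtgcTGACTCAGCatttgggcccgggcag
EGFR downstream region (chr7:55322662-55322702, plus strand): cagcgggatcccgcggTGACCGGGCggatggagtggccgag
EGFR downstream region (chr7:55323035-55323075, plus strand): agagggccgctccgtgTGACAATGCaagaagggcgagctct
The AP-1 motif was part of both TGACTCAGC cores of SMARCA4 and of none of the remaining 3 cores shown.

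CDKN2A encodes the CDK4 and CDK6 inhibitor of the INK4 family and the MDM2 inhibitor ARF, and CDKN2B another INK4 inhibitor beside it. Neither gene had a region within 50 kb in any of the 6 libraries, control or NRF2 siRNA. Of 20176 coding genes, 10.8% had none within that distance. The stretch without a peak in any library ran from 21907459 to 22123396 on chromosome 9, or 215.9 kb. Within single libraries it measured 352.8, 315.5 and 296.9 kb with control siRNA and 353.3, 314.2 and 215.9 kb with NRF2 siRNA. Both ends of the shortest stretch were peaks called in NRF2 siRNA replicate 3 alone, and without that library it measured 296.7 kb. Stretches this long were common, since 2220 in the genome and 84 on chromosome 9 were at least 215.9 kb long, and 476 of these held at least 2 coding starts as this one did. Copy number was not measured, so DNA that is missing and DNA without acetylation cannot be told apart in these lists.

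MTAP, the phosphorylase that salvages methionine from methylthioadenosine, is the neighbour of CDKN2A and kept a peak at its start. The region chr9:21801592-21804286 stood at 72.1, 76.9 and 85.8 with control siRNA and at 32.3, 67.1 and 74.5 with NRF2 siRNA. The groups overlapped, and the change of -0.43 (SE 0.203) did not pass (adjusted p = 0.256). Inside the gene the remaining regions ranked far lower. The widest region, chr9:21829242-21832376, was called in 4 libraries at percentiles between 1.3 and 25.2, and the last before the empty stretch, chr9:21907187-21907459, was called in NRF2 siRNA replicate 3 alone at 27.4. Upstream, chr9:21788661-21789984 stood at 36.5 and 49.0 in control replicates 2 and 3 and at 34.2, 59.8 and 59.2 with NRF2 siRNA, without a call in control replicate 1 (change 0.75, SE 0.252, adjusted p = 0.117). With equal list lengths it rose by 0.90 (adjusted p = 0.0290), and adding the block gave an adjusted p of 0.0221.

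On the far side, single libraries called 4 short regions before chr9:22146484-22150123, which 4 libraries called. The first region in all 6 was chr9:22155331-22162506, 160031 bp from CDKN2A, at 76.5, 90.4 and 88.0 with control siRNA and 89.7, 92.2 and 91.7 with NRF2 siRNA. The flank toward lower positions held one of the strongest regions of every list, chr9:21674010-21692512, at percentiles of 99.9 or above.

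**Figure D5:**
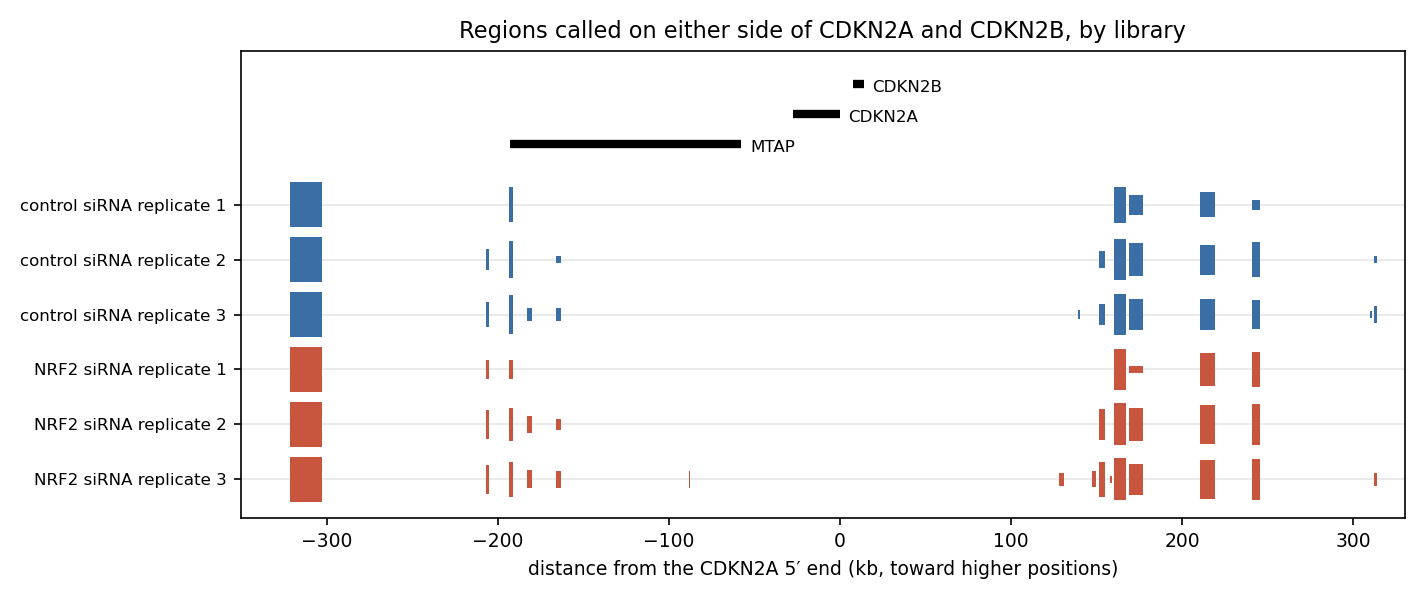
Regions called around CDKN2A and CDKN2B in each of 6 libraries (rows, blue control siRNA, red NRF2 siRNA) by distance from the CDKN2A 5′ end (kb, x axis); block height grows with the percentile and black bars on top are the bodies of MTAP, CDKN2A and CDKN2B. No row has a block over CDKN2A or CDKN2B, and the start of MTAP has one in every row.

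Partners of the 9 genes were read by the region at each 5′ end, from lists of 62 genes in 7 groups. A region was found at 44 of the 62, beside 49.0% of all coding genes. Of the 44, 42 could be tested, and 0 fell and 0 rose by limma, with or without the replicate block. In that limma fit 3 had an unadjusted p under 0.05 (E2F1, SMARCC2 and SMARCD1, with score changes of -0.87, -0.57 and -0.53). By group, regions lay at 6 of 10 ligands and partners of EGFR and MET, 7 of 8 RAS pathway genes, 4 of 7 genes of the MYC network, 5 of 11 CDK inhibitors and targets, 9 of 10 LKB1 partners and targets, 8 of 11 SWI/SNF subunits and 5 of 5 partners of MTAP. The best ranked of each group all had calls in 6 libraries. SHC1, an adaptor of receptor kinases, stood between 99.4 and 99.9, DUSP6, an ERK phosphatase, between 97.6 and 99.9, and SIK1, a kinase activated by LKB1, between 98.4 and 99.7. MAT2A, the synthase of S-adenosylmethionine, stood between 95.6 and 99.2 and CCND1, cyclin D1, between 95.0 and 97.3. MNT, a MAX partner that opposes MYC, stood between 84.9 and 96.6 and ARID1A, a SWI/SNF subunit, between 89.1 and 97.0. Taken at the canonical start, 52 of the 62 had a region, beside 52.5% of all coding genes. Of these, 50 were tested and again 0 fell and 0 rose.

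Among 6896 other coding genes with a start region in all 6 libraries, those closest to 5 of the members were named by the mean absolute difference in percentile over the 6 libraries. TEAD1, TSPO2 and UNC5CL were closest to PVT1 (1.04 to 1.75 percentile points), U2AF2, ZNF217 and ZNF768 to MET (1.23 to 1.43), C1orf53, MT2A and BTBD1 to EGFR (3.3 to 3.81), GABRE, EIF4EBP1 and LSM2 to MTAP (1.49 to 2.54), and WWC1, CHMP3 and CXCL2 to the region at the STK11 5′ end (0.39 to 0.59). Likeness here is in rank alone.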

How the data were processed

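H3K27ac ChIP-seq of A549 cells gave 6 deposited broad peak lists, 3 with control siRNA and 3 with NRF2 siRNA. The 2 input samples were not analysed here. Per the submitters' processing notes, the tools were bcl2fastq 2.15.0, cutadapt 1.15, Bowtie2 2.2.6, SAMtools, MACS2 2.1.0.20151222 and bedtools, on hg19. The authors kept reads of mapping quality 20 or more and called peaks in each library on its own. The deposited lists hold an integer score (not used), a fold enrichment as a ratio over background, and p-values and q-values as −log10. Which sample served as background is not given in the sources used here. The lists hold no read counts per peak, so no counting interval is given. Read totals stated by the study were lowest for the shortest list of each group, and they were not used here, since each library was read through its own ranks.

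All 24 chromosomes with peaks matched GRCh37 and 0 peaks passed a chromosome end. Genes came from GENCODE v44 lifted to GRCh37. Regions, calls and percentiles were made as the report states, with Python 3.11.15 and pandas 2.3.3. A region's value was its highest fold enrichment. Uncalled regions of a library shared the mean of the lowest ranks, so their score was higher where the list was shorter. Regions uncalled in replicate 1 of both groups, such as chr19:1159981-1162319, thus scored 0.25 higher with NRF2 siRNA in that pair. This enters their score changes and the counts of changes above and below 0. Scores were fitted with limma 3.58.1 (lmFit, eBayes) in R 4.3.3 after the same code was tested on simulated data. Member genes and gene lists were chosen with earlier results of these data known. Regions named are those at a member's start, past the threshold, best ranked or widest in a window, called in 1 group alone, or beside the empty stretch at CDKN2A, and a few others were named after their values were seen. A few items that these rules name are not reported here. Libraries of the same number deviated together from their group means (r = 0.398, 0.199 and 0.363 across 32673 regions), and unlike numbers gave r from -0.383 to 0.107. The numbers were therefore also used as pairs. List length rose from replicate 1 to 3 in both groups, and whether the likeness reflects pairing or list length was not tested. A flow cell identifier stands in the peak names of replicates 2 and 3 but not of replicate 1, and replicate 1 also had another NRF2 siRNA than replicates 2 and 3, so an effect of either cannot be told apart from the other's. Replicates were separate experiments of 1 line.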

Additional observations from a re-analysis of the deposited data

How the results depend on the processing

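Limits come from the lists: without read counts per region, a missing call and a weak one cannot be graded, and the length of a list sets how far down it reaches. The count of 3 members that fell became 1 with peaks at a q-value of at most 1e-05, 0 with regions called in all 6 libraries, and 0 to 3 when each library was left out in turn. The regions counted were not always the same, as the one downstream of EGFR passed in no fit with a library left out. The 0 that rose became 1 with equal list lengths and 7 with the replicate block and equal list lengths, and stayed 0 when any library was left out. Over all regions, 1108 lower and 657 higher became 2164 and 1868 with the replicate block, and 2041 and 2151 with that block and equal list lengths. They became 451 and 263 at a q-value of at most 1e-05 and 646 and 444 with replicates 2 and 3 alone. Of the 16845 regions called in all 6, 369 were lower and 341 higher. Those higher numbered 1185 with equal list lengths, 427 without a region filter and 1175 with the trend and robust options of eBayes. Leaving out each library gave 0 to 1591 lower and 0 to 747 higher, with 0 and 0 by limma without control siRNA replicate 2 (4878 at an unadjusted p under 0.05) and without control siRNA replicate 3 (4475). The cause was not tested.

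With the replicate block, 4 members fell, the PVT1 region at 129045018 being the addition, and no other call of a named region changed. Paired by replicate number, the exact p was 0.50 for the number of member regions called and 0.25 for the covered length, the smallest that 3 pairs allow. The differences of -10.3 regions and -52.5 kb ranged from -20.8 to 0.5 regions and from -101.8 to 3.01 kb when each library was left out. They were 0.5 regions and 3.01 kb without control siRNA replicate 3, and 0 regions and 1.90 kb without NRF2 siRNA replicate 1. The stretch without peaks at CDKN2A grew to 342.2 kb with equal list lengths or at a q-value of at most 1e-05, and 7 genes kept a region in the window under each of these. Windows of 100 kb on each side reached a region for all 9. The score change at the canonical start of STK11 turned to -0.033 with a length-weighted mean fold and -0.0044 with replicates 2 and 3 alone, and ranged from -0.10 (without control siRNA replicate 1) to 0.26 when each library was left out. That at the start of SMARCA4 turned to 0.10 at a q-value of at most 1e-05, and ranged from -0.66 to 0.014 (without NRF2 siRNA replicate 1). The other directions at member starts held in all alternatives run.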
